A study of Drosophila melanogaster with 13 samples.

Results

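The binding of CREB and its coactivator CRTC was examined at 9 genes of the Notch pathway in the mushroom bodies (MBs) of Drosophila melanogaster, the brain structures that hold olfactory memory. The genes were N, Dl, Ser, mam, Su(H), H, numb, neur and kuz, and a binding region belonged to one of them when the authors' annotated table printed exactly that gene symbol beside it. By this rule 22 of the 4995 CREB/CRTC regions were found, and 7 of the 9 genes had at least 1 region. Of the protein-coding genes in RefSeq, 19.4% were named on at least 1 region. Su(H) and H had none. The 9 genes were chosen with earlier results of these data known, so these shares were not tested against each other.

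ChIP-seq libraries were made from MB nuclei of strain CS10 with custom-raised antibodies. For each protein there were 3 libraries from naive flies and 3 from flies 1 day after spaced training. In this training an odour is paired repeatedly with electric shocks, with rests between. A single library of input DNA from naive flies brought the total to 13. All flies carried FLAG-KASH, a tagged nuclear envelope protein expressed in the MBs by MBp-LexA and used to pull down the nuclei. Each preparation pooled many flies and all subtypes of MB neurons that express the tag. The deposited site lists hold 1 score per site and no value for a library or a condition. Each level below therefore describes the list of a protein, without replicate error, and the depth behind a site is unknown. The lists do not state whether they draw on naive flies, spaced-trained flies or both, so the scores may describe spaced-trained flies only. Naive and spaced-trained flies were not compared here, because the values used carry no condition. ChIP-seq gives no expression, so the purity of the MB nuclei could not be checked here against marker genes. The paper estimated the purity by quantitative PCR of the DNA pulled down from tagged and untagged flies.

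Notch is a receptor on the cell surface that is activated by ligands on neighbouring cells. Once a ligand binds, the receptor is cut, and its intracellular part enters the nucleus, where it joins the DNA-binding protein Su(H) and the coactivator Mastermind to switch on target genes. The pathway is best known for binary cell fate choices during development of the nervous system, and it also acts in adult neurons, including in long-term memory of flies. CREB is a DNA-binding transcription factor activated by cAMP and calcium signals, and CRTC enters the nucleus and joins it when it is dephosphorylated.

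The protein lists held 7243 CREB-binding sites and 5990 CRTC-binding sites. A CREB/CRTC region is a CRTC-binding site with a CREB-binding site within 200 bp. The score of a site comes from the authors' peak caller, which compared ChIP DNA with input DNA. It has no physical unit and is used only to place a site within its own list. The median score was 3.67 in the CREB list and 4.21 in the CRTC list. Each of the 22 regions had a different nearest CREB-binding site, and that site shared bases with the CRTC-binding site at 20 of them (90.9%), against 90.7% over all 4995 regions.

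**Figure D1:**
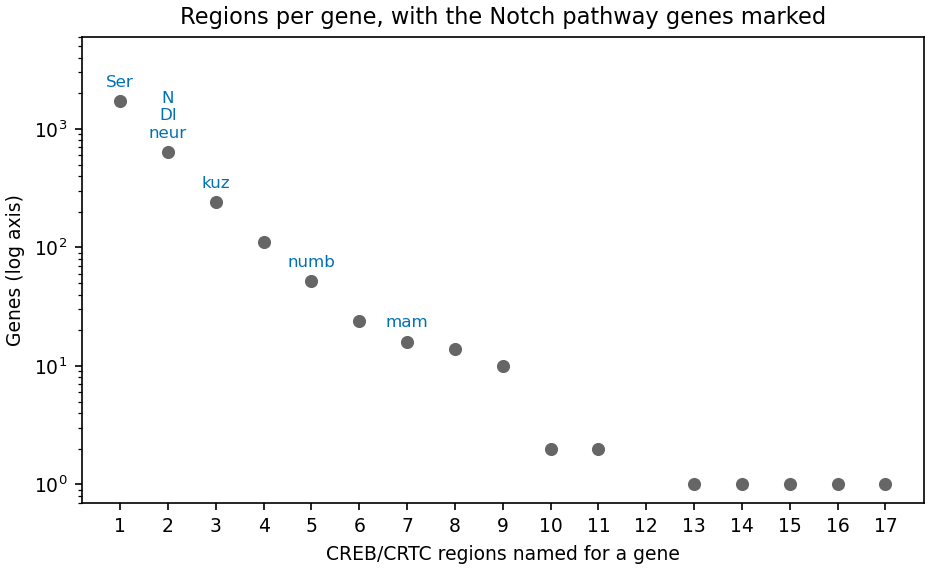
Number of genes (vertical axis, log scale) by the number of CREB/CRTC regions named for them (horizontal axis), over all 2833 genes named on a region. Names mark the Notch pathway genes at their count, from Ser with 1 region to mam with 7. Su(H) and H have no region and are not drawn.

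Of the 2833 genes named on a region, 60.7% had a single one, and 39.3% had at least 2. Among the Notch pathway genes, Ser had 1 region, N, Dl and neur had 2 each, kuz had 3, numb had 5 and mam had 7. A count of at least 5 was reached by 125 genes (4.41%) and a count of at least 7 by 49 genes (1.73%). The plot of regions per gene places mam and numb in this upper tail and the other members among the common counts. The chromatin was sheared to fragments of 100 to 500 bp, so neighbouring regions closer than this may share fragments and are not independent.

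The regions of N, the receptor itself, lay together at its transcription start site (TSS). In the dm3 assembly, which all positions refer to, the region at 3028815 to 3028937 of chromosome X covered the TSS, with a CRTC score of 5.76 and a CREB score of 10.6. The other region, at 3029140 to 3029267, began 203 bp further on and was listed 235 bp from the TSS, with scores of 4.07 for CRTC and 5.07 for CREB. That distance places the TSS at base 3028905, inside the former region. The region on the TSS thus had the higher score for both proteins, and its CREB score was above those of 89.5% of CREB-binding sites while its CRTC score was above 67.5% of CRTC-binding sites. The nearest regions of other genes were 35334 bp before, named kirre, and 26919 bp after, named CG18508.

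Dl, which encodes the ligand Delta, had the highest-scoring region of all 22. On chromosome 3R, the region at 15147668 to 15147828 had a CRTC score of 15.2 and a CREB score of 20.04, above 96.1% of CRTC-binding and 98.0% of CREB-binding sites. It was listed 4110 bp from the TSS. The region at 15151898 to 15151972 covered that TSS and scored 3.46 for CRTC and 5.01 for CREB, above 37.3% and 67.2% of the sites. At Dl, therefore, the high score lay away from the TSS and the region on the TSS was below the middle of the CRTC list. Both regions stood far from any other, with 96024 bp to the nearest region before, named vib, and 86237 bp to the nearest after, named CG31221.

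Ser encodes Serrate, the other ligand of Notch. Its single region on chromosome 3R, at 23019934 to 23020050, was listed at -218 bp from the TSS and so did not cover it. Negative distances are read here as upstream, the usual convention, which the file header does not define. The CRTC score was 6.63, above 73.2% of the list, and the CREB score was 10.3, above 88.8%. The nearest other regions, named CG5909 and CG18766, were 33052 bp before and 50786 bp after it.

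kuz encodes Kuzbanian, the metalloprotease that makes the first ligand-dependent cut in Notch. It had 3 regions packed within 715 bp of chromosome 2L, and the distances of 2 of them gave the same TSS at base 13550164. The region at 13550136 to 13550208 covered it, with a CRTC score of 9.04 and a CREB score of 16.2. The regions at 13550447 to 13550577 and 13550737 to 13550851 lay 283 and 573 bp from it, and their scores were 9.67 and 8.76 for CRTC. The paired CREB scores there were 7.10 and 10.8. The CRTC scores of kuz therefore spanned a narrow range, above 84.1% to 87.2% of the list, while the CREB scores ran from above 79.1% to above 96.2%. A region named B4 ended 795 bp before them, and the next region after them, named ics, was 90259 bp away.

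neur encodes Neuralized, a ubiquitin ligase that acts on the ligands in the cell that sends the signal. On chromosome 3R, its region at 4859420 to 4859478 covered the TSS and scored 5.30 for CRTC and 5.79 for CREB. Its other region, at 4859829 to 4859888, was listed at -376 bp and scored higher for both, 7.87 for CRTC and 10.2 for CREB. That distance places the TSS at base 4859453, inside the former region. In contrast to N, the region off the TSS ranked higher here, above 80.0% of the CRTC and 88.5% of the CREB list. The nearest region before was named tgo, 13805 bp away, and the nearest after was named hyx, 5497 bp away.

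numb encodes an inhibitor of Notch that is passed to only one daughter cell in asymmetric divisions. Its 5 regions on chromosome 2L fell into a lone region and a group of 4. The lone one, at 9437381 to 9437477, covered a TSS and scored 3.61 for CRTC and 4.36 for CREB. The group of 4 began 10820 bp further on, and its listed distances all pointed to a TSS at base 9449829. From the farthest to the nearest, these regions were listed at -1510, -1197, -498 and -15 bp, with CRTC scores of 1.62, 3.58, 8.32 and 12.1. The CREB scores followed the same order, at 2.04, 3.38, 6.24 and 15.6. Scores thus increased with closeness to this TSS for both proteins, from above 1.17% to above 92.4% of the CRTC list. The weakest, at 9448297 to 9448319, was 22 bp wide and did not overlap its CREB-binding site, which lay 20 bp away. The strongest, at 9449728 to 9449814, was among the top 10% of both lists, as was the Dl region at 15147668. The nearest other regions were named scat, 6034 bp before, and Gdi, 44106 bp after.

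mam encodes Mastermind, the coactivator of the nuclear complex, and its regions were spread over 50261 bp of chromosome 2R. Their listed distances pointed to 3 TSSs. At the TSS at base 9878686, the region at 9878614 to 9878716 covered the start and scored 4.20 for CRTC and 4.65 for CREB. The region at 9879266 to 9879396 was 580 bp away and scored 8.15 and 7.76. At the TSS at base 9896702, the region covering it, at 9896655 to 9896749, scored 4.24 for CRTC and 5.44 for CREB. The region at 9895817 to 9895961, listed at -741 bp, scored 10.9 and 10.4. At both of these TSSs the flanking region ranked higher than the one on the start.

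The mam regions listed by the TSS at base 9919183 scored low and did not lie close together. Listed at -1096, -100 and 9663 bp, they had CRTC scores of 2.35, 3.04 and 2.30 and CREB scores of 1.89, 1.64 and 3.34. The last of them lay 9764 bp from the mam region before it. All 3 CRTC scores were above at most 28.8% of the list. The region at -100 bp, at 9919071 to 9919083, was 12 bp wide and lay 144 bp from its CREB-binding site, the largest gap among the 22 regions. No region covered this TSS.

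**Figure D2:**
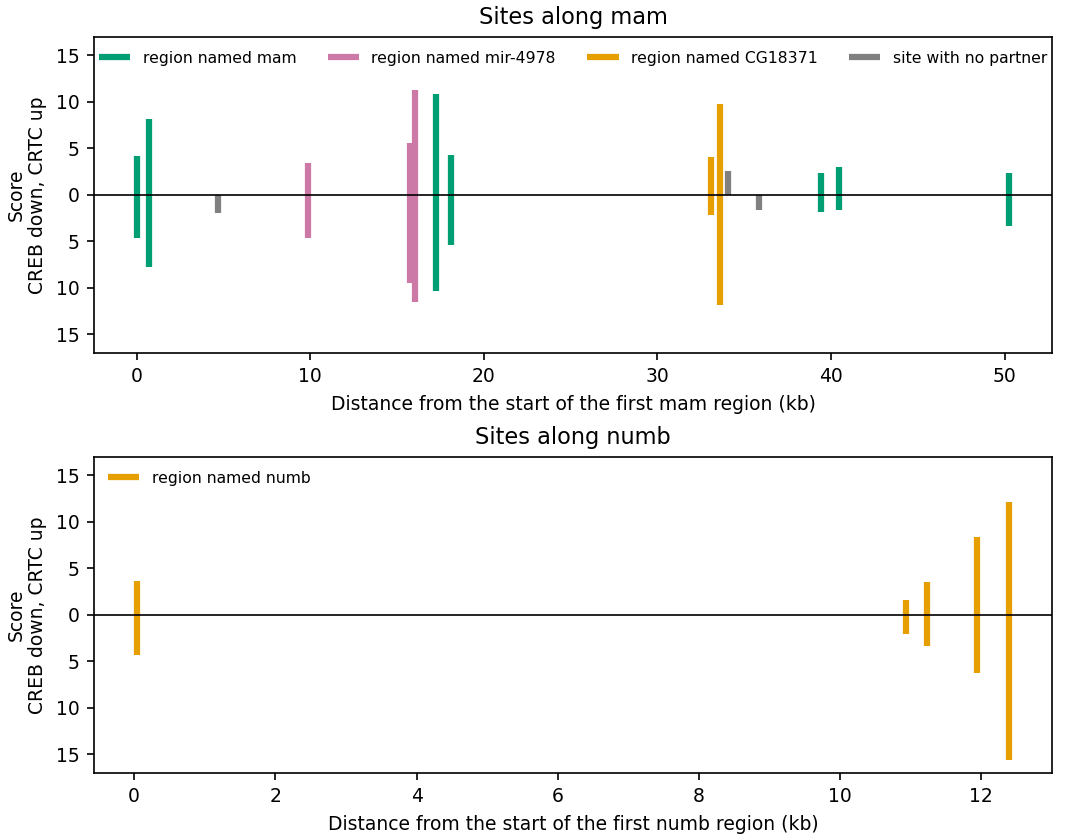
Scores of CRTC-binding sites (upward) and of their paired CREB-binding sites (downward) along mam and numb, against the distance in kb from the start of the first region of the gene. Coloured lines are CREB/CRTC regions by the gene they are named for, and grey lines are sites of 1 protein with no partner within 200 bp. Scores of mam are low at the right end, and those of numb are highest there.

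Between the outermost mam regions lay 5 more CREB/CRTC regions that the table names for other genes, so the stretch held 12 regions in all. They were 3 regions named mir-4978, a microRNA gene, and 2 named CG18371. The highest CRTC score of the stretch, 11.3, belonged to the mir-4978 region at 9894613 to 9894745, with a CREB score of 11.6. The CG18371 region at 9912165 to 9912313 followed, after mam's own highest, with 9.72 for CRTC and 11.9 for CREB. The map of mam shows these 5 regions between those named mam. The naming in the table therefore leaves 5 regions inside the mam stretch out of the count of 7. At the other members, no region of another gene lay between their own. Outside the mam stretch, a region named RN-tre ended 476 bp before it and one named Prosap began 98508 bp after it.

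Su(H) encodes the DNA-binding protein of the pathway and H encodes Hairless, which represses through Su(H). In the order of RefSeq genes, the nearest genes around Su(H) with a region are yellow-c and ck. Their facing regions on chromosome 2L of dm3 ended at base 15035497 and began at base 15057049, and no CREB/CRTC region and no CRTC-binding site lay in the 21552 bp between. There were 2 CREB-binding sites there, with scores of 1.86 and 2.54, both below the list median. The former, at 15035502 to 15035524, began only 5 bp after the yellow-c region. The ck region, at 15057049 to 15057163, scored 13.6 for CRTC and 12.7 for CREB, was listed 684 bp from the TSS of ck, and belongs to ck by the table. For H, the nearest such genes were bon and CG42322, with 145083 bp of chromosome 3R between their facing regions. That interval held 6 CREB-binding sites with scores of at most 2.55 and a single CRTC-binding site with a score of 2.58. The intervals around both members thus held only sites with scores below the list medians. The distance of these sites from Su(H) or H was not determined, as no dm3 annotation was used.

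**Figure D3:**
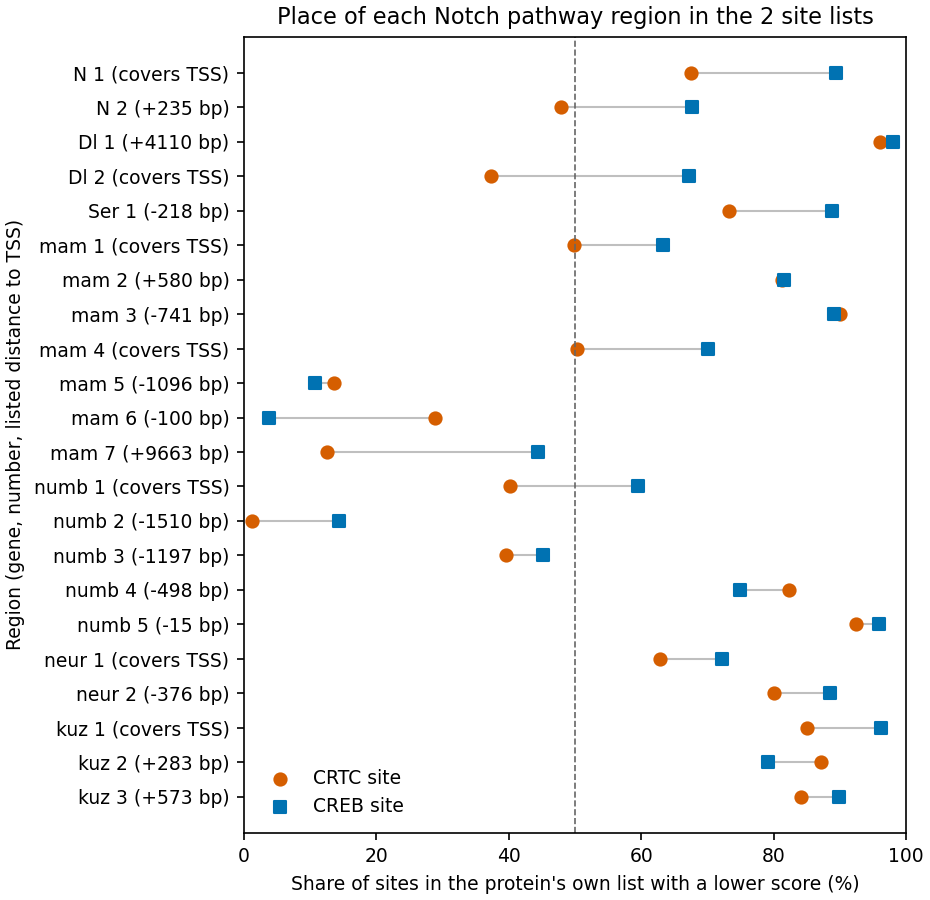
Place of each of the 22 regions in the list of its protein, as the percentage of all CRTC-binding sites (circles) or CREB-binding sites (squares) with a lower score. Each row is a region with its gene and listed distance to the TSS, a grey line joins the pair, and the dashed line marks the list median. The CREB square lies to the right of the CRTC circle in 17 of 22 rows, including all 7 that cover a TSS.

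Over all members, the median CRTC score of the 22 regions was 5.53, and 13 of them (59.1%) were above the median of the CRTC list. Over all 4995 regions the median was 4.66 and this share was 56.4%. With only the highest score in each 1 kb window of the genome kept, the members' median CRTC score was 4.24. The members' higher median therefore depends on counting neighbouring regions separately. The median CREB score of the paired sites was 6.02 for the members and 4.60 for all regions, with 77.3% and 63.9% above the median of the CREB list. The top 10% of the CRTC list held 3 of the 22 regions (13.6%), at Dl, mam and numb, and 11.8% of all regions. The top 10% of the CREB list also held 3, at Dl, kuz and numb, and 14.3% of all regions. By rank, the members thus spread from above 1.17% to above 96.1% of the CRTC list and from above 3.81% to above 98.0% of the CREB list. Their highest scores, 15.2 and 20.04, were far below the list maxima of 122.6 for CRTC and 63.6 for CREB. No test was made of these differences, since regions are not replicates and the members were chosen with earlier results known.

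CREB-binding sites ranked higher in their list than the CRTC-binding sites they were paired with at 17 of the 22 regions (77.3%), against 65.8% of all regions. The 2 rank scales are not alike, so a higher CREB rank is no measure of more CREB binding. Sites with no partner within 200 bp make up 30.1% of the CREB list (median score 2.46) and 16.6% of the CRTC list (2.80). The authors also filtered the peaks of the 2 proteins at different read densities. The CREB rank was the higher one at all 7 regions that cover a TSS, in 6 genes, and at 73.6% of the 1051 such regions in the series. The exceptions among the 22 regions were the mam regions at -741, -1096 and -100 bp, the numb region at -498 bp and the kuz region at 283 bp. The plot of ranks shows the widest gaps with the CREB rank above the CRTC rank at the last mam region and at the Dl region on the TSS. The scores of both proteins rose together over the 22 regions, with a Spearman's rho of 0.912 and a Pearson's r of 0.903 on log2 scores. Over all regions these were 0.816 and 0.840. Points share libraries, the input DNA and local chromatin, and several come from the same gene, so these values are descriptions.

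**Figure D4:**
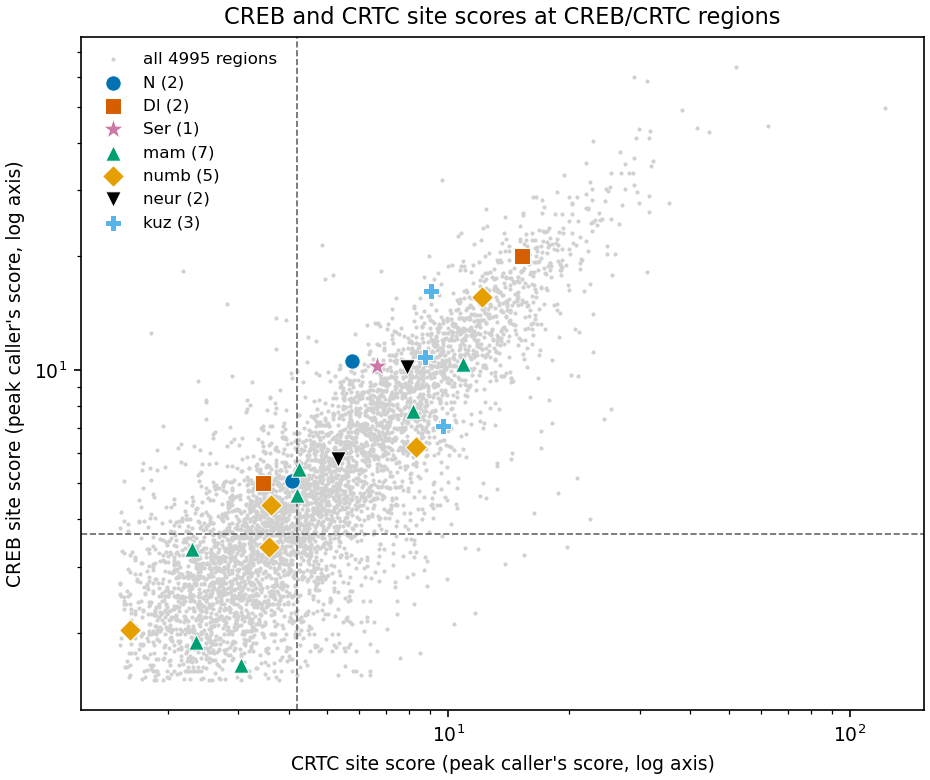
CREB score against CRTC score at all 4995 regions (grey) and at the 22 Notch pathway regions (coloured by gene), both on log axes, with the list medians as dashed lines. The members follow the cloud from numb at 1.62 and 2.04 to Dl at 15.2 and 20.04.

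By position, 14 of the 22 regions (63.6%) lay within 500 bp of a TSS, close to the 63.8% of all regions. Within 200 bp the share was lower for the members, 9 of 22 (40.9%), than for all regions (52.7%). Regions that cover a TSS made up 31.8% of the members and 21.0% of all regions. Of the 7 genes, 6 had one, against 35.2% of all genes named on a region. These shares of genes are not alike, since a gene with more regions has more chances of one on a TSS. At least 2 regions were named for 6 of the 7 genes, against 39.3% of all genes named on a region. Only 1 region, that of mam at 9663 bp, was more than 5 kb from a TSS, against 8.43% of all regions. The members within 500 bp had a median CRTC score of 5.53, and the 8 others one of 5.86. Over all regions these medians were 4.47 and 5.02. The CREB medians went the other way, with 6.02 and 5.57 for the members and 4.63 and 4.58 for all regions.

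The members' CRTC-binding sites were 12 to 160 bp wide, with a median of 90 bp, against a median of 106 bp over all regions. Of the 22, 5 were narrower than 50 bp (22.7%, against 10.7% of all regions), and these were 3 numb and 2 mam regions. The midpoints of paired CREB and CRTC sites were a median of 13.5 bp apart, and at most 20 bp apart at 14 of the 22 regions (63.6%). Over all regions the median was 22.0 bp and the share 47.1%. The false discovery rate of the peak caller was at most 0.00957 for the members' CRTC-binding sites and 0.00934 for their CREB-binding sites, and it was listed as 0 at 5 CRTC-binding sites of Dl, mam, numb and kuz.

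A list of 58 other genes of the Notch pathway gave 56 regions at 26 genes (44.8%), where 19.4% of protein-coding genes were named on a region. This list was chosen with earlier results of these data known, so its shares are descriptions and no enrichment is read from them. The nuclear cofactors had regions at 6 of 9 genes, and genes of trafficking and asymmetric division at 10 of 18. Target genes had regions at 8 of 21 (38.1%). Receptor processing genes had them at 2 of 10, about the share of all protein-coding genes. The median CRTC score over the 56 regions was 5.16, between those of the members and of all regions, and 64.3% of them lay within 500 bp of a TSS.

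Among the nuclear cofactors, skd, a Mediator subunit, had 5 regions with CRTC scores of 4.14 to 15.3 and CREB scores of 3.48 to 18.4. nej, the fly CBP and itself a coactivator of CREB, had 5 regions with CRTC scores of 5.08 to 9.44. Smr, a corepressor that works with Su(H), had 4 regions with CRTC scores of 8.96 to 14.3, listed 4637 to 6702 bp from the TSS. Its CREB scores were 3.71 to 9.52, so that the highest CREB site was above 86.6% of its list while the highest CRTC site was above 95.4%. gro and CtBP, both corepressors, had 2 regions each.

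In trafficking and division, baz, a polarity protein, had 3 regions, and the one listed 10376 bp from the TSS had the highest scores of the list, 16.2 for CRTC and 28.8 for CREB. Its region on the TSS scored 1.90 and 2.38. Like Dl, baz thus had its high score away from the TSS. aPKC, a kinase that phosphorylates Numb, had 4 regions with CRTC scores of 3.43 to 11.0. Nedd4, a ubiquitin ligase, had 5 regions with CRTC scores of 2.83 to 6.66. l(2)gd1, which acts in endosomal sorting of Notch, had 1 region with 12.3 for CRTC and 20.02 for CREB, at -53 bp from its TSS.

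Among processing genes, fng, a glycosyltransferase that changes which ligand Notch responds to, had 2 regions, the higher with 13.0 for CRTC and 18.6 for CREB. Of the target genes, klu, a zinc finger gene, had 2 regions with CRTC scores of 10.1 and 12.7, and ct, a homeobox gene, had 3 with 6.89 to 8.62. Of the 11 genes listed from the Enhancer of split complex, which encode repressors and Bearded-type proteins switched on by Notch, 4 had 1 region each. The highest of them was the E(spl)malpha-BFM region at 21834176 to 21834312 of chromosome 3R, with 9.995 for CRTC and 5.02 for CREB. The others, at E(spl)mbeta-HLH, E(spl)m3-HLH and E(spl)m2-BFM, had CRTC scores of 2.59, 4.23 and 3.61.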

How the data were processed

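Per the paper's methods, the authors mapped paired-end MiSeq reads to dm3, took as peaks the overlap of 2 algorithms of Strand NGS (PICS, ERD) run against input DNA, and kept those found in at least 2 of 3 replicates. The deposited score of each site and its false discovery rate, a q-value, were computed by the authors, and the lists name no library. The paper introduces the lists in its account of binding after spaced training, and their columns name no condition. Which libraries a list combines was therefore not determined. The annotated table adds a gene symbol and a distance to the TSS. Its 4 columns of fold changes and adjusted p-values hold the authors' DESeq2 comparison of spaced-trained with naive flies and were not used.

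Site widths and gaps are end minus start. Each CRTC-binding site was paired with the nearest CREB-binding site by edge distance, with ties broken by the midpoints. TSS positions were computed from the listed distances, where those of a gene agreed within 1 bp or the position fell inside a region listed as covering a TSS. Python 3.11.15, NumPy 2.4.6, pandas 2.3.3, SciPy 1.17.1 and Matplotlib 3.10.9 were used, and the search for nearest sites was tested on simulated data. Of 2833 symbols in the table, 2303 are symbols and 476 are synonyms of 1 gene in the RefSeq table of Release 6, used for names and gene order only. It lists Dl as Delta.

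The members and the list of other pathway genes were chosen with earlier results of these data known. All 9 members are named, and of the other genes those with at least 3 regions or a CRTC score in the top 10% of the list, beside the genes of the nearest regions on each side. The genes gro, CtBP, the Enhancer of split genes and the genes around Su(H) and H or inside mam fall outside this rule and were named after their values were seen. The list holds 5 regions of elav, a neuronal gene. No test was made, because there is no value per library. Alternatives covered widths, scores, distances and the unit of counting. No dm3 sequence was used, so the planned search for CRE motifs was not run and no sequence is shown.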

Additional observations from a re-analysis of the deposited data

Results flagged for a closer look

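Sites of 1 protein with no site of the other within 200 bp lie outside the regions compared above, although they were called over input DNA. They number 2182 in the CREB list (30.1%) and 995 in the CRTC list (16.6%). Within 10 kb of the outermost regions of the members, 6 were found, and none near Dl, Ser or numb.

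Near N, a CREB-binding site at 3030552 to 3030660 of chromosome X, 1285 bp after its regions, scored 3.87, above 53.1% of the CREB list, the highest place of the 6. Among the mam regions on chromosome 2R, CREB-binding sites at 9883274 to 9883318 and 9914436 to 9914508 scored 1.95 and 1.59, and a CRTC-binding site at 9912628 to 9912772 scored 2.53. A CREB-binding site 309 bp from the latter fell beyond the limit for a pair.

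Near neur, a CRTC-binding site scored 2.39, and near kuz, a CREB-binding site scored 3.07. The nearest regions to these belong to hyx and B4, and those to the mam sites at 9914436 and 9912628 belong to CG18371, 2123 and 315 bp away, so the link of these 4 sites to neur, kuz and mam was not determined. Whether the other protein was bound below the threshold at any of the 6 was not tested, since the lists hold no signal outside called sites.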

How the results depend on the processing

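Of 18 alternatives, 14 gave a value within 1.5 times the one reported. The 22 regions fell to 9 with CRTC-binding sites at least 100 bp wide and to 13 with scores above the list median, in both cases because the filter removes regions. Comparing symbols without regard to case raised them to 28 by adding dl and h, which are other genes, with 3 regions each. Counting every region between a gene's outermost ones, chosen after seeing the data, gave 27. The number of regions within 500 bp of a TSS went from 14 to 9 at 200 bp, where the share of all regions went from 63.8% to 52.7%. The median CRTC score rose to 9.67 when each gene was represented by its highest-scoring region, which selects high values. It fell from 5.53 to 4.24 when only the highest score in each 1 kb window of the genome was kept. That is within the limit of 1.5 times but below the median of 4.66 over all regions, which was not counted by window. All 7 genes kept a region when CRTC scores had to be above the list median. Motif alternatives were not run. No paired analysis was possible because the deposited columns carry no value per replicate, and for the same reason no replicate could be left out. Scores of the peak caller depend on depth and on the single input library, which limits all ranks given here.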
